A study of Mus musculus with 76 samples.

Results

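The oxidative phosphorylation subunits are the nuclear-encoded proteins of the 5 enzyme complexes of the mitochondrial inner membrane. They were chosen by gene symbol as Ndufa, Ndufb, Ndufc, Ndufs and Ndufv genes, Sdha to Sdhd, Uqcr genes, Cox4 to Cox8 genes and Atp5 genes, without the Ndufaf assembly factors. The symbols gave 84 of 20710 genes measured, with 1 array probe kept for each. Of these, 34 belong to complex I, 4 to complex II, 8 to complex III, 19 to complex IV and 15 to complex V. The other 4 carry a matching symbol in the array table and are not counted as subunits here: Cox7a2l (a supercomplex assembly factor), Dmac2 and Dmac2l (listed as Atp5sl and Atp5s) and Emc8 (listed as Cox4nb, of the endoplasmic reticulum membrane complex). Expression was measured on 76 single-colour arrays, 37 of lung vessels and 39 of alveolar septa, both microdissected from lungs of 40 mice. The strain is labelled C57BL/6-Noxo1(tm1881_17.2Arte), and the mice were Noxo1 knockout or wild-type. Noxo1 encodes the organiser protein of the NADPH oxidase NOX1. Mice of each genotype were exposed to smoke of Kentucky 3R4F research cigarettes (140 mg/m3 particles, 6 h daily, 5 days weekly, beginning at week 12) or kept as controls, and the labels give the time as 3 or 8 months. Each of the 16 groups held 4 or 5 arrays. The labels do not say how the wild-type mice relate to the knockout line, which part of Noxo1 is deleted or what air the controls breathed.

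Complexes I and II pass electrons from NADH and succinate to ubiquinone, complex III passes them on to cytochrome c, and complex IV (cytochrome c oxidase) hands them to oxygen. Complexes I, III and IV pump protons across the inner membrane, and complex V, the ATP synthase, uses the gradient to make ATP. Several subunits of complex IV come in tissue-specific forms: Cox6a2, Cox7a1 and Cox8b are the forms of heart and skeletal muscle, Cox6a1, Cox7a2 and Cox8a are the general forms, and Cox4i2 is an alternative to the general Cox4i1 that is known for its expression in lung and its part in oxygen sensing.

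Levels are the authors' log2 signals, so a difference of 1 is a doubling of signal, and array signals carry no counts, so the number of arrays limits the precision. Signals of 81 of the 84 genes averaged above 3.99, the 95th percentile of odorant and vomeronasal receptor genes, which lung tissue is taken not to express. Dmac2l (2.81), Cox7b2 (1.75) and Cox8c (1.78) did not, and their differences carry little information. The tissue labels matched their markers: all 13 smooth muscle markers were higher in vessels, and all 10 type 1 pneumocyte and 11 of 12 type 2 pneumocyte markers were lower there. Of 12 ciliated airway cell markers, 11 were also higher in vessels. Vessel arrays differed in heart muscle signal. Myh6, the atrial myosin heavy chain, lay between 8.42 and 14.2 in 13 of 37 vessel arrays, between 1.30 and 5.88 in the other 24, and between 1.07 and 6.56 in septa. The mean level of 18 heart muscle genes ran from 4.53 to 10.6 in those 13 arrays, 3.13 to 4.10 in the other vessels and 2.44 to 3.45 in septa. Mouse 6 (knockout control, 8 months) and mouse 22 (wild-type control, 3 months) had the highest heart muscle means, 10.6 and 10.2. Group means of Noxo1 itself ran from 2.75 to 3.74 in knockout vessels, against 3.55 to 4.93 in wild-type vessels, and from 2.05 to 2.63 in knockout septa, against 3.04 to 4.43 in wild-type septa. The genotypes overlapped and Noxo1 did not pass in either tissue (-0.84 ± 0.47, adjusted p = 0.979 in vessels, and -1.31 ± 0.32, adjusted p = 1.00 in septa, limma). No gene passed in either of these comparisons. Every knockout group mean of Noxo1 lay below the 3.99 of the receptor genes, and wild-type means lay on both sides of it, so its values carry little information. Whether the probe lies in the deleted part was not tested. The arrays of mice 7 and 29 went against each other in the sex-linked genes: Xist minus the Y-linked mean was 11.2 in the vessels and -3.33 in the septa of mouse 7, and -1.86 in the vessels and 10.2 in the septa of mouse 29.

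Of the 84 genes, 28 were higher in vessels than in septa, 4 were lower and most did not pass the test. The genes that were lower included Cox4i2 and Ndufa4l2 of complex IV. The mean vessel minus septa difference over the 8 combinations of genotype, exposure and time was tested with limma over all 76 arrays. The threshold was an adjusted p of 0.05 (Benjamini-Hochberg over all genes), which 52 of the 84 genes did not pass. Of all genes tested, 12.7% were called higher and 16.2% lower, 28.9% in all. The difference was above 0 for 70 of 84 genes with a median of 0.22, against a median of 0.02 over all genes tested. In bulk tissue, fewer cells of a type and less RNA per cell cannot be told apart. Without the 13 vessel arrays of high Myh6, 11 genes were called higher and 7 lower (9.93% and 13.8% of all genes), 57 of 84 differences were above 0, and the median was 0.10. Of these 18 calls, 14 were also among the 32 made with every array. With the heart muscle mean of each array as a covariate, 38 of 84 differences were above 0 and the median was -0.03. In that setting 2 genes were called higher and 9 lower, and the share of all genes called was not worked out. Only 5 of these 11 calls were among the 32: Atp5g1 and Ndufa12 higher, and Cox4i2, Ndufa4l2 and Cox7a2l lower. The shift of the whole set towards higher levels in vessels was thus not seen with that setting.

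**Figure D1:**
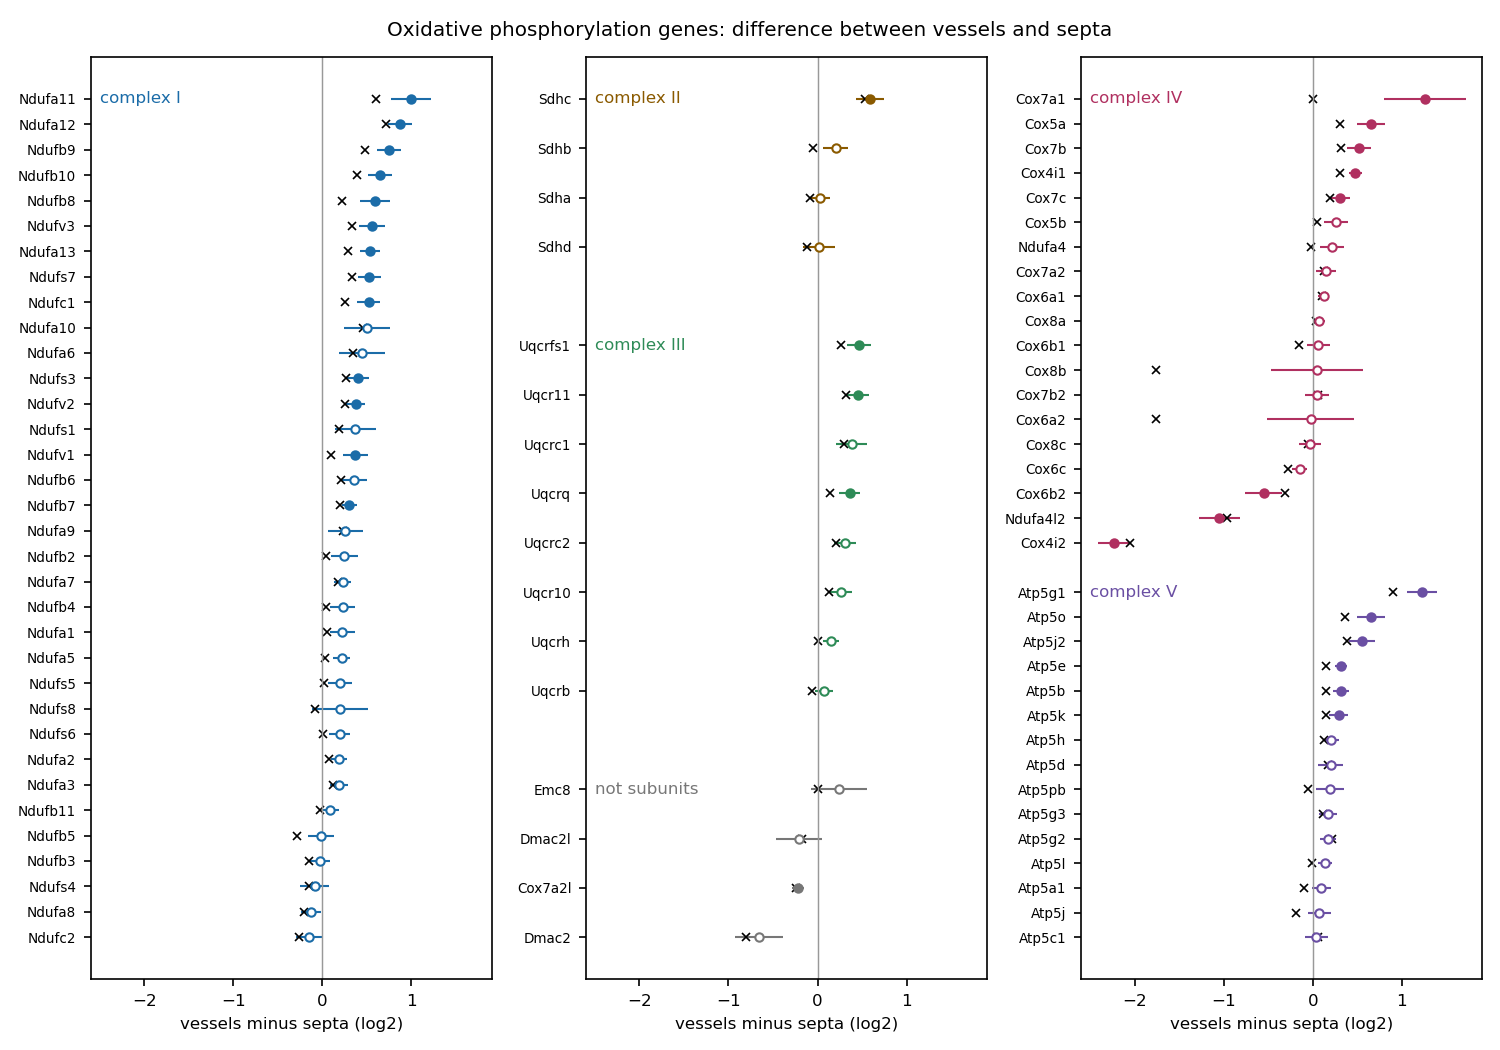
Vessel minus septa difference (x axis, log2) of each of the 84 genes, grouped by complex and sorted within it. Circles with bars are the difference ± SE over 76 arrays, filled where the adjusted p is under 0.05, and crosses are the difference without the 13 vessel arrays of high Myh6. Most circles of complexes I, III and V lie right of 0, Cox4i2 lies farthest left, and the crosses of Cox6a2 and Cox8b lie near -1.76.

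In complex I, 13 of 34 genes were higher in vessels and none was lower, with a median difference of 0.28. The largest rises were in accessory subunits. Ndufa11, of the membrane arm, ran from 6.60 to 10.5 in vessels (median 8.24), against 5.34 to 8.75 in septa (median 7.51). The groups overlapped, with 13 of 37 vessel arrays above every septa array, and the difference was 1.00 ± 0.22 (SE, adjusted p = 0.000213). Ndufa12, an accessory subunit of the NADH-oxidising module, ran from 8.27 to 11.3 in vessels (median 9.67), against 7.21 to 9.58 in septa (median 8.96). Of the vessel arrays, 21 of 37 were above every septa array, and its difference of 0.87 ± 0.13 had the lowest adjusted p of the complex, 2.07e-07. The membrane arm subunits Ndufb9 (0.75 ± 0.14), Ndufb10 (0.64 ± 0.14) and Ndufb8 (0.60 ± 0.17) were higher too. Ndufa11, Ndufa12 and Ndufb9 were higher in vessels in each of the 8 combinations. Of the core subunits, Ndufv1, which binds NADH, passed narrowly at 0.37 ± 0.14 (adjusted p = 0.0406) and was 0.10 without the 13 arrays. Ndufs1, the large iron-sulphur subunit, had a similar value with a wider error, 0.37 ± 0.23 (adjusted p = 0.24). Of the 13 calls, those of Ndufa11 (0.60), Ndufa12 (0.71), Ndufb9 (0.48), Ndufb10 (0.39), Ndufa13 (0.29) and Ndufs7 (0.33) still passed without the arrays of high Myh6. With the heart muscle covariate Ndufa12 alone of these passed (0.57, adjusted p = 0.00369), and Ndufa11 had 0.44 (adjusted p = 0.216), Ndufb9 0.36 (0.0729), Ndufb10 0.22 (0.305), Ndufa13 0.16 (0.368) and Ndufs7 0.23 (0.298).

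Of the 4 subunits of complex II, succinate dehydrogenase, only the membrane anchor Sdhc passed the test. Its vessel arrays ran from 7.69 to 12.2 (median 10.4), against 8.45 to 11.0 in septa (median 9.77), and the difference was 0.59 ± 0.15 (adjusted p = 0.00173) and 0.53 without the arrays of high Myh6. With the heart muscle covariate it was 0.26 and did not pass (adjusted p = 0.341). The catalytic flavoprotein Sdha (0.03 ± 0.11), the iron-sulphur subunit Sdhb (0.20 ± 0.14) and the other anchor Sdhd (0.02 ± 0.18) did not pass. Whether Sdhc differed more than these was not tested. In complex III all 8 differences were above 0 and 3 passed, with a median of 0.33. These were the Rieske iron-sulphur protein Uqcrfs1 (0.46 ± 0.13) and the small subunits Uqcr11 (0.46 ± 0.12) and Uqcrq (0.36 ± 0.11). The core protein Uqcrc1 had 0.38 ± 0.17 (adjusted p = 0.0886). Uqcr11 alone of these still passed without the arrays of high Myh6, at 0.32, and with the heart muscle covariate none passed (Uqcr11 0.06, adjusted p = 0.777).

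In complex V, the ATP synthase, all 15 differences were above 0 and 6 passed, with a median of 0.20. Atp5g1 is 1 of 3 genes for the membrane c subunit, whose mature protein is the same from each. It ran from 7.02 to 11.3 in vessels (median 8.43), against 5.67 to 8.49 in septa (median 7.47), with 16 of 37 vessel arrays above every septa array. Its difference was 1.23 ± 0.17 (adjusted p = 1.75e-08), was above 0 in all 8 combinations (0.73 to 1.84), and was 0.90 without the arrays of high Myh6. The other c subunit genes had smaller values that did not pass, 0.17 ± 0.09 for Atp5g2 and 0.17 ± 0.10 for Atp5g3. The catalytic beta subunit Atp5b was higher by 0.31 ± 0.09 (adjusted p = 0.00549), while the alpha subunit Atp5a1 had 0.10 ± 0.10 (adjusted p = 0.539). Atp5o, which joins the stalk to the catalytic head, was higher by 0.66 ± 0.16, and Atp5j2 (0.55), Atp5e (0.32) and Atp5k (0.29) also passed. Of these, Atp5g1 and Atp5j2 (0.39) passed without the arrays of high Myh6, and Atp5b had 0.15. With the heart muscle covariate Atp5g1 passed (0.55, adjusted p = 0.00783) and Atp5j2 did not (0.17, adjusted p = 0.517).

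Complex IV went both ways: 5 of 19 genes were higher in vessels and 3 lower, with a median of 0.07. Cox4i2 had the largest difference of the 84 genes. It ran from 4.72 to 8.97 in vessels (median 7.14), against 8.23 to 10.1 in septa (median 9.31), and 32 of 37 vessel arrays lay below every septa array. The difference was -2.23 ± 0.18 (adjusted p = 3.86e-17), and it was below 0 in all 8 combinations, from -3.18 to -1.13. Tested within each combination, Cox4i2 was lower in knockout smoke-exposed (-2.67) and control mice (-2.17) at 3 months, knockout smoke-exposed (-2.05) and control mice (-3.09) at 8 months, wild-type smoke-exposed (-3.18) and control mice (-1.75) at 3 months and wild-type controls at 8 months (-1.81). Of all genes, 2.23%, 2.61%, 0.826%, 3.92%, 3.03%, 1.86% and 1.3% were called lower in these 7, in the same order. In wild-type smoke-exposed mice at 8 months it did not pass (-1.13, adjusted p = 0.304), where 1.41% of all genes were lower. Its general counterpart Cox4i1 went the other way. Cox4i1 ran from 11.0 to 13.2 in vessels (median 12.0), against 10.9 to 12.1 in septa (median 11.6), with 16 vessel arrays above every septa array and a difference of 0.48 ± 0.08 (adjusted p = 6.74e-07). Both calls held without the arrays of high Myh6, at -2.06 for Cox4i2 and 0.31 for Cox4i1. With the heart muscle covariate Cox4i2 was at -2.30, and Cox4i1 fell short of the threshold at 0.20 (adjusted p = 0.0528).

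**Figure D2:**
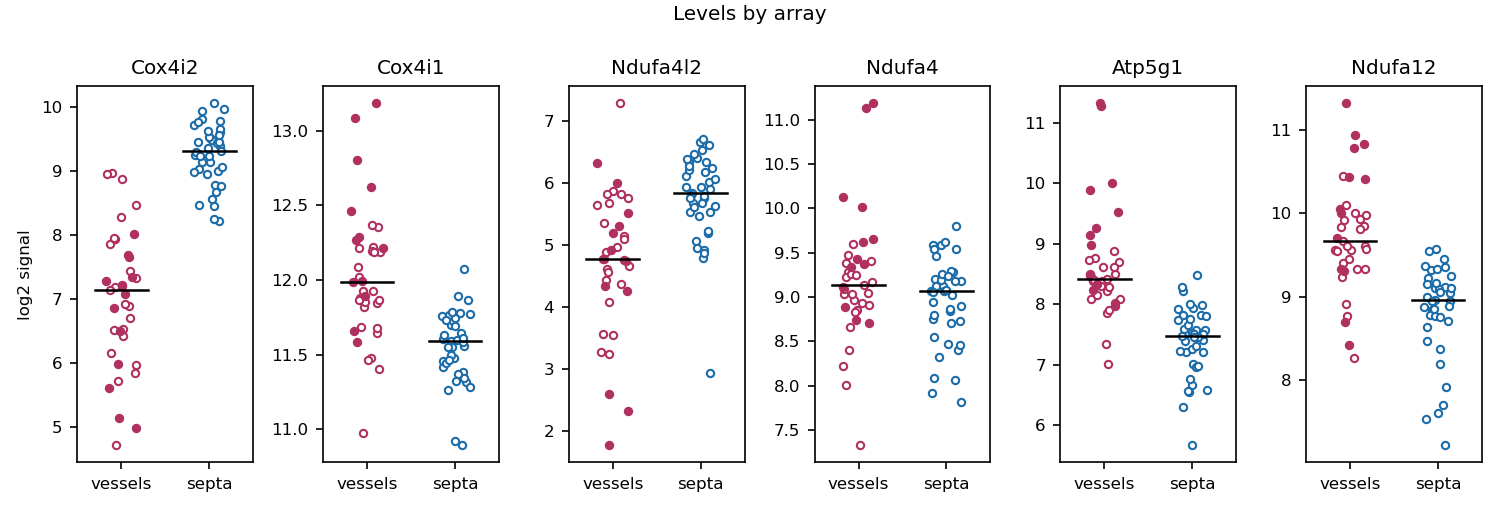
Log2 signal (y axis, a scale of its own in each panel) of 6 genes in 37 vessel arrays and 39 septa arrays. Points are arrays, filled where Myh6 was above that of every septa array, and bars are medians. Cox4i2 and Ndufa4l2 sit lower in vessels and Cox4i1, Atp5g1 and Ndufa12 higher, with open and filled vessel points on the same side for Cox4i2.

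The Ndufa4 pair encodes a small subunit now placed in complex IV. Ndufa4l2, a form known to be induced by hypoxia, ran from 1.77 to 7.29 in vessels (median 4.78), against 2.94 to 6.71 in septa (median 5.84). The groups overlapped widely, but the difference was -1.05 ± 0.23 (adjusted p = 0.00019), was below 0 in all 8 combinations, and was -0.96 without the arrays of high Myh6. Ndufa4 itself had 0.22 ± 0.13 (adjusted p = 0.228). The third gene that was lower was Cox6b2, known as the testis form of subunit VIb, at -0.55 ± 0.21 (adjusted p = 0.0382). Its call was lost when any of 14 arrays was left out and without the arrays of high Myh6 (-0.31). The general form Cox6b1 had 0.06 ± 0.13. The assembly factor Cox7a2l was lower by 0.22 on the log2 scale (-0.22 ± 0.07, adjusted p = 0.0143).

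Of the other complex IV genes, Cox5a, which binds the inner face of the core, was higher by 0.66 ± 0.15, Cox7b by 0.52 ± 0.14 and Cox7c by 0.31 ± 0.10. Without the arrays of high Myh6 their values were 0.31, 0.32 and 0.19, and none passed. Cox7c has another probe whose tissue difference had the opposite sign, as did probes of Atp5l, Ndufb6 and Ndufb11. The general forms Cox6a1 (0.12 ± 0.06), Cox7a2 (0.15 ± 0.11) and Cox8a (0.07 ± 0.07) did not pass.

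The muscle forms of complex IV had the widest spread of all members in vessels. Cox6a2 ran from 2.45 to 14.5 in vessels (median 7.45), against 6.57 to 9.99 in septa (median 8.04). Vessel arrays lay on both sides of the septa, 10 above every septa array and 11 below, and the mean difference was -0.02 ± 0.49. Cox8b ran from 1.23 to 11.9 in vessels (median 3.46), against 1.63 to 6.86 in septa (median 4.80), with a difference of 0.05 ± 0.51. Cox7a1 ran from 2.33 to 12.4 in vessels (median 5.26), against 2.23 to 6.85 in septa (median 4.55), and was called higher by 1.26 ± 0.46 (adjusted p = 0.0303). The call of Cox7a1 was lost without either of the vessel arrays of knockout smoke-exposed mice at 8 months, replicate 2, and wild-type controls at 3 months, replicate 3. Its leave-one-out values ran from 1.06 to 1.40.

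The 3 muscle forms had higher medians in the vessel arrays of high Myh6 than in the other vessels, with overlap. Cox6a2 lay between 7.16 and 14.5 in the 13 vessel arrays of high Myh6 (median 12.3), between 2.45 and 8.70 in the other 24 (median 6.74), and had a median of 8.04 in septa. Cox8b ran from 2.26 to 11.9 in the 13 arrays (median 8.56), from 1.23 to 5.41 in the other vessels (median 2.41), and had a median of 4.80 in septa. Cox7a1 ran from 3.75 to 12.4 in the 13 arrays (median 8.41), from 2.33 to 6.64 in the other vessels (median 4.37), and had a median of 4.55 in septa. The lowest of the 13 arrays thus lay below the septa median for each of the 3 forms. Without the 13 arrays, Cox6a2 was lower in vessels than in septa by 1.76 on the log2 scale (-1.76 ± 0.32, adjusted p = 1.09e-05), and so was Cox8b (-1.76 ± 0.32, adjusted p = 1.81e-05). Cox7a1 was then at 0.01 ± 0.31. Cox6c (-0.28) and Dmac2 (-0.80) were also called lower in that setting. As Myh6 splits the vessel arrays into 2 sets, the relation was examined within each. The heart muscle mean separates these sets less, starting at 4.53 in the 13 arrays and reaching 4.10 in the others. Within the 13 arrays, the heart muscle mean and Cox6a2 had Pearson r = 0.95 (permutation p = 1e-05, the smallest the permutations can give, adjusted over 30 relations 0.0003) and Spearman rho = 0.92 (permutation p = 5e-05, adjusted 0.0015). Cox7a1 had r = 0.89 (permutation p = 8e-05, adjusted 0.0012) and rho = 0.90 (p = 0.00012, adjusted 0.0018), and Cox8b had r = 0.86 (permutation p = 0.00021, adjusted 0.0021) and rho = 0.82 (p = 0.00104, adjusted 0.0104). Without the 2 arrays farthest from the median heart muscle level, r was 0.93 for Cox6a2, 0.86 for Cox7a1 and 0.89 for Cox8b, and rho for Cox8b no longer passed (0.78, permutation test, adjusted p = 0.0619). Within the other 23 vessel replicates, r was -0.38 for Cox6a2, -0.39 for Cox7a1 and 0.20 for Cox8b, and none passed (permutation tests, adjusted p = 0.229, 0.229 and 0.527). Cox4i2 was related in the 13 arrays to the adipocyte list mean (r = 0.78, permutation p = 0.00226, adjusted 0.0169, and rho = 0.74, p = 0.00513, adjusted 0.0385), and this call was lost without the 2 farthest arrays (r = 0.69, adjusted p = 0.0717). The adipocyte mean itself ran from 5.04 to 8.96 in the 13 arrays, 4.51 to 7.20 in the other vessels and 4.12 to 5.61 in septa. It was 8.40 in the vessel array of mouse 6 and 8.96 in that of mouse 22. Its r in the 13 arrays was 0.39 for Cox6a2, 0.42 for Cox7a1 and 0.47 for Cox8b. Without the 2 arrays farthest from its median, r was 0.66, 0.74 and 0.63. None of these passed (permutation tests, lowest adjusted p = 0.0581).

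**Figure D3:**
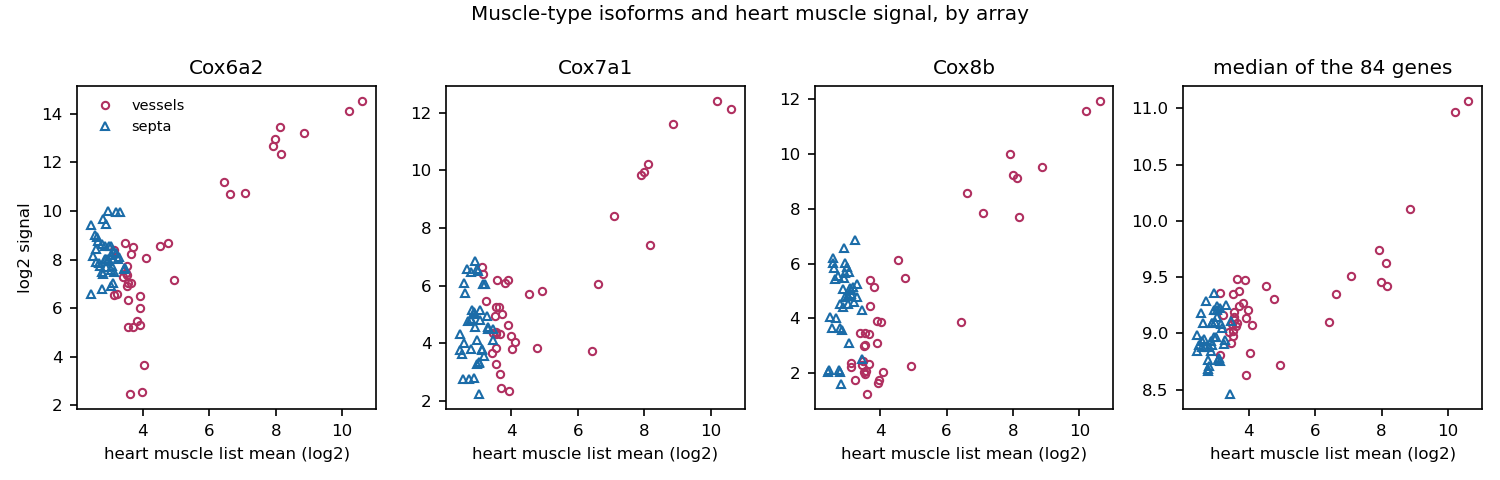
Log2 signal (y axis) of Cox6a2, Cox7a1 and Cox8b and the median of the 84 genes against the mean log2 level of 18 heart muscle genes (x axis), 1 point per array. Septa lie at heart muscle means under 3.46 on the left, and the 2 vessel arrays farthest right are those of mice 6 and 22, with member medians of 11.1 and 11.0.

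The median over the 84 genes was 11.1 in the vessel array of mouse 6 and 11.0 in that of mouse 22, against 8.63 to 9.49 in the 24 vessel arrays of low Myh6 and 8.46 to 9.36 in septa. Within groups, the mean correlation between pairs of the 84 genes was 0.35 over the 37 vessel arrays, 0.08 over the 24 of low Myh6, and 0.14 over the 39 septa arrays. Over all pairs of genes tested it was 0.0008, 0.0007 and 0.0037, and arrays were normalized to 1 distribution. In vessels the mean was highest for complex III, at 0.55, and lowest for complex IV, at 0.25. These are descriptions over genes that share arrays. The vessel minus septa difference was smallest in knockout controls at 3 months, with 44 of 84 differences above 0 and a median of 0.02. No vessel array of that group had high Myh6. In wild-type smoke-exposed mice at 8 months, 1 of 4 vessel arrays had high Myh6. Their array medians averaged 9.34 in vessels and 8.90 in septa. At 3 months 3 of 5 had high Myh6, and the averages were 9.12 and 8.98. Whether the number of such arrays and the difference are related was not tested. In the other 7 combinations 51 to 68 genes were above 0, with medians of 0.21 to 0.39. Within single combinations, 6 genes were higher in knockout controls at 8 months (2.52% of all genes), among them Ndufa10 of complex I (2.29), Ndufb9 (1.63) and Cox4i1 (0.95), and this group holds the array of mouse 6. Cox4i1 was higher in wild-type controls at 3 months (0.82, 1.5% of all genes), Atp5g1 in wild-type smoke-exposed mice at 3 months (1.84, 2.1% of all genes) and Ndufa12 in wild-type controls at 8 months (1.71, 1.96% of all genes). None was higher in knockout controls (2.1% of all genes) or knockout smoke-exposed mice (2.14%) at 3 months or in knockout (1.69%) or wild-type smoke-exposed mice (2.27%) at 8 months, and Uqcrb was lower in knockout controls at 3 months (-0.95).

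**Figure D4:**
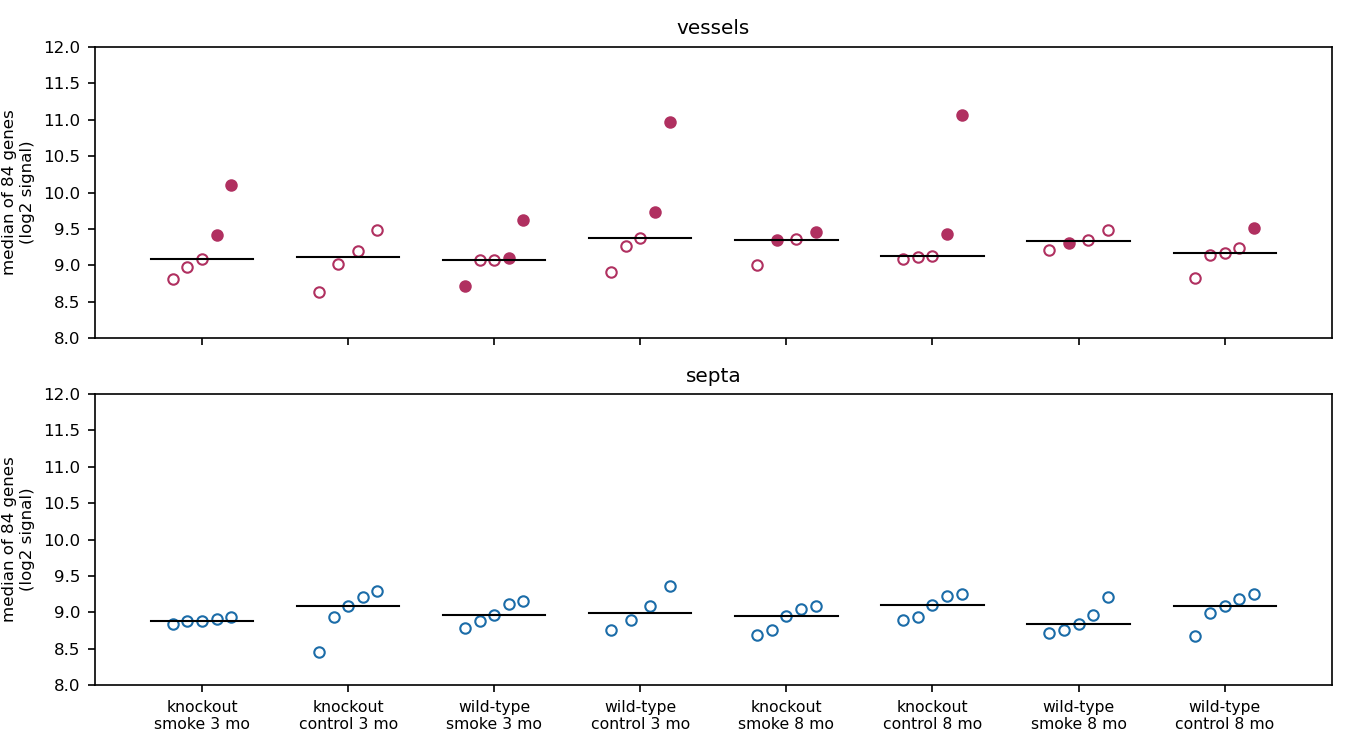
Median log2 signal of the 84 genes (y axis) in each array of the 16 groups, vessels above and septa below on 1 scale. Filled points are vessel arrays of high Myh6 and bars are group medians. Vessel arrays of low Myh6 lie between 8.63 and 9.49, close to the septa arrays at 8.46 to 9.36.

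Genes around the respiratory chain were mixed, and their counts stand against 12.7% of all genes called higher and 16.2% lower. Of 22 carrier and exchange genes, 5 were higher in vessels and none lower. The mitochondrial creatine kinase of muscle Ckmt2 rose by 1.88 ± 0.44, and the ADP/ATP carrier of heart and skeletal muscle Slc25a4 by 1.10 ± 0.15. Of 16 citric acid cycle genes, 4 were higher and none lower, among them Idh3a (1.00 ± 0.24) and citrate synthase, Cs (0.96 ± 0.14). Of 21 fatty acid oxidation genes, 7 were higher and 2 lower. The muscle forms Fabp3 (1.23 ± 0.44) and Cpt1b (1.05 ± 0.37) were higher, and the fatty acid transporter Cd36 (-2.01 ± 0.18) and the general form Cpt1a (-0.77 ± 0.18) were lower. Of 21 glycolytic genes, 12 were higher and 1 lower. The insulin-responsive glucose transporter Slc2a4 was higher by 5.93 ± 0.27, and the hexokinase Hk3 was the lower one (-2.17 ± 0.32). Of 46 assembly factors, 4 were higher and 4 lower, led by the copper chaperone Sco2 (2.08 ± 0.31) and by Tmem126b, a complex I assembly factor (-1.29 ± 0.30). Of 78 mitochondrial ribosomal protein genes, 13 were higher and 3 lower, with a median of 0.07. Of 22 biogenesis regulators, 2 were higher, the coactivator Ppargc1a (1.37 ± 0.40) and the muscle regulator Perm1 (1.08 ± 0.25), and Nrf1, a factor that drives respiratory chain genes, was lower (-0.41 ± 0.16, adjusted p = 0.0495). Ckmt2, Slc25a4, Fabp3, Cpt1b and Perm1 are also known from heart muscle, whose genes were higher in vessels for 16 of 18, and the part of that signal in their values was not tested.

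Promoters are shown for Atp5g1 and Ndufa12, the genes called higher in vessels also with the heart muscle covariate, and for 2 muscle forms, 250 bases up to the annotated start (RefSeq, GRCm38.p6), on the gene's strand from 5′ to 3′. Capitals mark matches, on either strand, to CCAAT, to the ETS core CGGAAG or to the E-box CAGCTG. Atp5g1 lies at chr11:96075632-96075881 on the minus strand, Ndufa12 at chr10:94198785-94199034 on the plus strand, Cox7a1 at chr7:30183921-30184170 on the plus strand and Cox8b at chr7:140900447-140900696 on the minus strand. The annotated span of Atp5g1 reaches base 96075694, so its window ends at a start within that span and overlaps it.
Atp5g1: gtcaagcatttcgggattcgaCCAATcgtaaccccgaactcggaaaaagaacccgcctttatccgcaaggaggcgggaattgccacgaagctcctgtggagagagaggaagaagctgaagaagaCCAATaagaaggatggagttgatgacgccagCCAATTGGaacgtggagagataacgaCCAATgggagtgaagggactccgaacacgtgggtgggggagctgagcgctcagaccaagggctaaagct
Ndufa12: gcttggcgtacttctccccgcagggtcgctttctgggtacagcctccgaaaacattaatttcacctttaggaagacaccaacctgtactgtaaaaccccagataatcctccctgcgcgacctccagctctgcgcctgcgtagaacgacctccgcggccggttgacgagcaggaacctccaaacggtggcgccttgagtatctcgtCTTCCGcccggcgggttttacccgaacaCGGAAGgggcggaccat
Cox7a1: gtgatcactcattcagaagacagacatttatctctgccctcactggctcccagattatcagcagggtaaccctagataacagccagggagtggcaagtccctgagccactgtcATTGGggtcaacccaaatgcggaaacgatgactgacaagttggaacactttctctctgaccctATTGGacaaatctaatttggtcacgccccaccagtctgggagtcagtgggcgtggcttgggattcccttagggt
Cox8b: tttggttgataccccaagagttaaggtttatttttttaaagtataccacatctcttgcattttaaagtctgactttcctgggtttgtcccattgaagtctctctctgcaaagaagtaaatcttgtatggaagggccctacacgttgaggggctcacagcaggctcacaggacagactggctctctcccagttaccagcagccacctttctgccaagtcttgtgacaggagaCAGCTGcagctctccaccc
Atp5g1 held 5 CCAAT matches, 2 of which overlap on opposite strands, and no ETS match. Ndufa12 held 2 ETS matches and 22 CpG pairs. Cox7a1 held 2 CCAAT matches and 4 CpG pairs, and Cox8b held 1 E-box and 1 CpG pair. RefSeq windows were matched for 69 of the 84 genes (75 promoters). Of these promoters 29.3% held CGGAAG, against 13.6% of all 32851 promoters, and 20.0% held TGCGCA, the core of the NRF1 site, against 6.43%. CCAAT was in 42.7% against 33.9%, CAGCTG in 8.0% against 13.0%, and TATAAA in 9.33% against 12.4%. The median GC content was 56.0% against 52.4%, and the median number of CpG pairs 14 against 6. GC content itself moves how often such letters occur, and a match is not a bound site.

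Cigarette smoke moved no member past the test in any comparison. Averaged over genotypes and times in vessels, 62 of 84 differences were below 0 with a median of -0.13 (limma, 0.0% of all genes called), and 2 members had an unadjusted p under 0.05 (5.0% of all genes). In septa, 61 of 84 were below 0 with a median of -0.11 (0.0% called), and 6 members had an unadjusted p under 0.05, all lower (7.7% of all genes). The lowest p-values in septa were those of Atp5g1 (-0.57 ± 0.19, adjusted p = 0.55, limma) and of Ndufb4 (-0.53 ± 0.19) and Ndufb2 (-0.47 ± 0.19), both accessory subunits of the membrane arm of complex I. Atp5g1 ran from 5.67 to 7.92 in smoke-exposed septa (median 7.22), against 6.67 to 8.49 in control septa (median 7.74), and the groups overlapped. In vessels these were Cox8a (-0.23 ± 0.11, adjusted p = 0.977), Atp5d and Cox7c. Exposure and sex were not balanced: 11 of 20 smoke-exposed septa arrays had Xist above the Y-linked mean, against 4 of 19 control septa arrays, and 9 of 18 against 4 of 19 in vessels. With that difference as a covariate, medians were -0.16 in vessels and -0.12 in septa, and none passed. Without the vessel arrays of mice 6 and 22, the vessel median turned to 0.06, with 32 of 84 below 0, and without the arrays of high Myh6 it was -0.02, with 45 of 84 below 0. With the heart muscle mean as a covariate the vessel median was -0.15, with 63 of 84 below 0, and none passed.

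The largest smoke shift was in wild-type vessels at 3 months, where 74 of 84 differences were below 0 with a median of -0.46, against -0.01 over all genes. None passed (0.0% of all genes), and 12 had an unadjusted p under 0.05, all lower (6.12% of all genes). Atp5pb, a stator subunit of the ATP synthase, had 7.91, 7.29, 7.57, 5.98 and 9.12 in smoke-exposed vessels, against 8.21, 7.91, 10.0, 9.29 and 8.65 in control vessels, where both arrays of mouse 25 (replicates 2 and 5) are shown. The difference was -1.38 ± 0.55 (adjusted p = 0.775, limma). The groups overlapped, and the highest control was mouse 22. Ndufb7, of complex I, had 11.6, 11.0, 10.7, 11.4 and 10.9 in smoke-exposed vessels, against 11.5, 10.9, 12.5, 12.0 and 11.9 in controls, and Cox5a had 7.76, 9.24, 8.09, 8.46 and 9.60, against 9.02, 9.34, 11.6, 10.4 and 7.91. Mouse 22 was the highest control in each. The muscle forms had wide values that did not pass, -3.82 for Cox8b (adjusted p = 0.813), -2.12 for Cox7a1 (adjusted p = 0.922) and -1.35 for Cox6a2 (adjusted p = 0.96), by limma. High Myh6 was found in 3 of 5 smoke-exposed and 2 of 5 control vessel arrays, with heart muscle means of 3.62 to 8.12 against 3.45 to 10.2. Without the vessel arrays of mice 6 and 22 the median was -0.16 with 57 of 84 below 0 and 0 at an unadjusted p under 0.05, and without the arrays of high Myh6 it was -0.19. With the heart muscle covariate the median stayed at -0.31, with 66 of 84 below 0, and none passed. With both arrays of mouse 25 as replicates it was -0.30.

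In knockout vessels at 3 months the median was 0.11, with 48 of 84 above 0 and 2 members at an unadjusted p under 0.05 (6.2% of all genes). Uqcrb of complex III had the lowest p (1.22 ± 0.38, adjusted 0.52, limma). High Myh6 was found in 2 of 5 smoke-exposed and 0 of 4 control arrays, and without such arrays the median was -0.16. With 1 array left out at a time it ran from -0.06 to 0.25. The difference of the smoke effect between genotypes, knockout minus wild-type, had a median of 0.61 in vessels at 3 months, with 70 of 84 above 0. None passed (0.0% of all genes), and 10 had an unadjusted p under 0.05 (6.03% of all genes). Without the arrays of high Myh6 that median was -0.02. Its lowest p was that of Ndufs8, a core subunit of complex I (4.95 ± 1.47, adjusted 0.688, limma). At 8 months the median smoke difference was -0.07 in knockout vessels (0.23 without the array of mouse 6), with 4 members at an unadjusted p under 0.05 (4.3% of all genes), and 0.03 in wild-type vessels, with none (2.94%). In septa the 4 medians ran from -0.14 to -0.08, and no member passed. Members at an unadjusted p under 0.05 were 2 in knockout septa at 3 months (3.54% of all genes), 7 at 8 months (6.55%), 5 in wild-type septa at 3 months (5.09%) and 4 at 8 months (5.79%). All genes called were 0.00483% in wild-type septa at 3 months and 0.0% in the other single smoke comparisons. The smoke effect did not pass as different between genotypes in septa at either time (0.0% of all genes), with 1 member at an unadjusted p under 0.05 at 3 months (3.37%) and 2 at 8 months (4.34%), nor in vessels at 8 months (0.0%), with 2 (3.14%). Between vessels and septa it had a median of 0.04 with no member past (0.00966% of all genes) and 4 at an unadjusted p under 0.05 (6.18%).

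**Figure D5:**
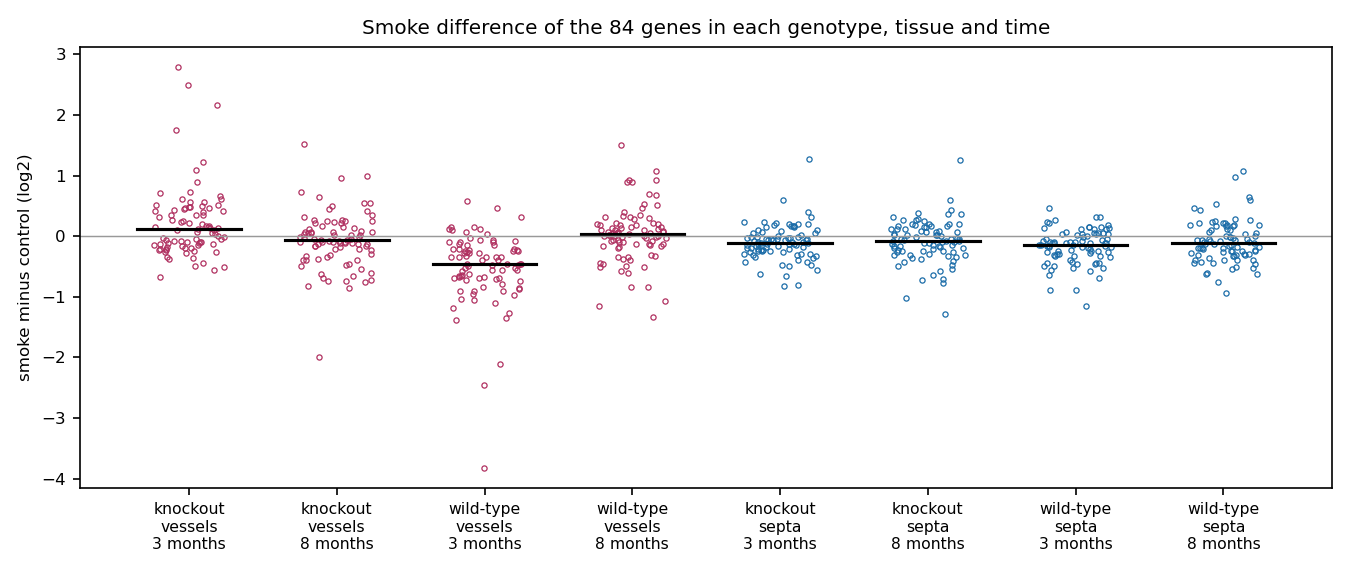
Smoke minus control difference (y axis, log2) of the 84 genes, 1 point per gene, in each genotype, tissue and time, with bars at the medians. The median lies at -0.46 in wild-type vessels at 3 months, at 0.11 in knockout vessels at 3 months and between -0.14 and 0.03 elsewhere, and no point passed the test.

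Loss of Noxo1 moved no member past the test either. Averaged over exposures and times, the knockout minus wild-type medians were -0.06 in vessels and -0.03 in septa (0.0% of all genes called in each, limma). In each tissue 1 member had an unadjusted p under 0.05 (4.86% of all genes in vessels and 3.98% in septa). In septa this was Cox8b, at 1.22 ± 0.40 (adjusted p = 1.00, limma). It ran from 3.57 to 6.86 in knockout septa (median 5.16), against 1.63 to 6.03 in wild-type septa (median 4.53), so the groups overlapped. In vessels the knockout minus wild-type difference of Cox8b was 0.14. In vessels it was Dmac2l, whose signal lay at background. Cox4i2 had -0.62 ± 0.35 in vessels (adjusted p = 0.979).

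Calls for time were few and close to the share of all genes called. In septa, 2 were higher at 8 than at 3 months and 2 lower (2.23% and 1.27% of all genes), and 20 had an unadjusted p under 0.05 (15.8% of all genes). Uqcrfs1 ran from 7.48 to 8.99 at 8 months (median 8.36), against 6.85 to 8.73 at 3 months (median 7.59), a difference of 0.63 ± 0.16 (adjusted p = 0.0201). Cox5a ran from 7.99 to 9.88 at 8 months (median 9.16), against 7.77 to 9.06 at 3 months (median 8.39), a difference of 0.60 ± 0.16 (adjusted p = 0.0287). Ndufb7 ran from 10.4 to 11.2 at 8 months (median 10.8), against 10.3 to 11.6 at 3 months (median 11.2), a difference of -0.37 ± 0.09 (adjusted p = 0.0149). Ndufa12 had a median of 8.77 at 8 months, against 9.11 at 3 months, a difference of -0.57 ± 0.16 (adjusted p = 0.0401). All 4 overlapped between times, and none of the 4 passed in 1 fit over all 76 arrays. The call of Ndufa12 was lost when any of 15 arrays was left out. In vessels, Cox6a1 alone passed (1.02% of all genes higher and 0.246% lower). It ran from 12.6 to 13.4 at 8 months (median 12.9), against 12.2 to 13.0 at 3 months (median 12.5), a difference of 0.35 ± 0.08 (adjusted p = 0.0255), and it did not pass without mice 7 and 29 or without the arrays of high Myh6. The medians over the 84 genes were 0.03 in vessels and 0.01 in septa. Of the pathway lists, 1 of 21 glycolytic genes was higher at 8 months in septa and of 78 mitochondrial ribosomal protein genes 1 was higher in vessels and, in septa, 1 was higher and 1 lower, while the carriers, citric acid cycle, fatty acid oxidation, assembly and biogenesis lists had no call in either tissue.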

How the data were processed

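RNA of laser-microdissected lung vessels and septa was amplified, labelled with Cy5 and hybridised to single-colour Agilent arrays, per the labels' protocols. The values are log2 signals deposited by the authors, who name limma in the submitters' processing notes. The labels give no background correction, normalization or version. The 76 columns had medians of 3.19 and nearly the same quartiles, as after quantile normalization, and were used as deposited. Of 62976 features, 31465 carried a gene symbol. Symbols were updated through RefSeq accessions for 29036 of these, and 2429 were not matched. Features with an empty cell were left out. The probe with the highest mean over all arrays stood for its gene, which gave 20710 genes. Of the 84 genes, 26 had several probes, whose correlations over arrays ran from 0.0218 to 0.976.

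Differences were fitted with limma 3.58.1 in R 4.3.3 (lmFit, eBayes with a trend), with Benjamini-Hochberg adjustment over all genes and a threshold of 0.05. Each tissue was fitted with its 8 groups, and both vessel arrays of mouse 25 were averaged, leaving 36 vessel replicates. Vessels and septa of 1 mouse are paired by the mouse number in the labels, so that comparison was fitted over 76 arrays with mouse as a random block (consensus correlation 0.0262). Residuals of the 35 same-mouse pairs correlated by 0.0298 on average, against -0.0071 for other pairs. The procedure was also run on simulated data, drawn as independent normal values for each gene and array. The simulation held no correlation within mice or between genes and no subset of arrays of high Myh6. It therefore does not show how these affect the fits. Replicates are separate mice, kept 5 to a cage.

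The genes, lists and tests were chosen with earlier results of these data known. Named genes are the 10 largest rises and the 10 largest falls past the threshold between tissues, the members past it elsewhere (or the 3 of lowest p), the tissue-type forms, the Sdh genes and core subunits, and up to 4 genes of each list. Other genes named were added after their values were seen. Marker relations used 100000 permutations. Alternatives covered the probe rule, a low-value filter, renormalization, array weights, blocks, sex-linked signal and left-out arrays. Those on heart muscle signal were chosen after seeing the data.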

Additional observations from a re-analysis of the deposited data

Results flagged for a closer look

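In each of 176 sets of arrays of 1 gene and group, the highest and lowest arrays were set against the rest by Dixon's test, and 12 stood apart, where chance gives about 1 in 20. The median over the 84 genes was 11.069 in the vessel array of mouse 6, a knockout control at 8 months, against 9.424 in the next array of its group. Cox4i1 (13.186) and Cox6a2 (14.532) were also highest in that array. In knockout smoke-exposed mice at 3 months, Cox4i2 was 4.718 in the vessels of mouse 14, Ndufa11 was 6.156 in the septa of mouse 14, and Ndufa11 was 9.664 in the vessels of mouse 13. Ndufa4 was 10.015 in the vessels of mouse 20, a knockout smoke-exposed mouse at 8 months, and 8.397 in the septa of mouse 9, a knockout control at 8 months. Cox7a1 was 2.745 in the septa of mouse 2, a knockout control at 3 months. Cox8b was 2.51 in the septa of mouse 32, a wild-type smoke-exposed mouse at 3 months. Ndufa12 was 9.334 in the vessels of mouse 38, a wild-type smoke-exposed mouse at 8 months, and Cox4i1 was 10.92 in the septa of mouse 28, a wild-type control at 8 months.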

How the results depend on the processing

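Of the results that answer a comparison, 756 values under an alternative counted as unchanged and 15 did not. Runs with 1 array left out are not in these numbers. Medians counted as unchanged within the spread of the member median within groups, 0.51 for vessels and between tissues and 0.21 for septa. Counts were held to a fixed ratio, and marker relations to their side of the threshold. The vessel spread is wide, so the tissue median counted as unchanged even at -0.03. Most comparisons had no member called, and a count of 0 that stayed at 0 also counted as unchanged. The number 756 therefore says little about how stable the results are. Between tissues, 11 genes were higher and 7 lower without the 13 vessel arrays of high Myh6 (9.93% and 13.8% of all genes). With the heart muscle mean as a covariate 2 were higher and 9 lower (median -0.03, 38 of 84 above 0). The share of all genes called with that covariate was not worked out, and the covariate itself differed between tissues. With that covariate Cox7a1 was at -0.84, Cox8b at -2.55 and Ndufv1 at -0.049, and without the 13 arrays Cox8b was at -1.76. Leaving out 1 array at a time gave 26 to 32 genes higher, 3 to 5 lower and a median of 0.18 to 0.25. With a replicate block by mouse as a fixed factor, 33 were higher and 4 lower (median 0.28), and with no block 28 and 4 (median 0.22). For these settings and the left-out arrays, the shares of all genes called were not worked out either.

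For time in septa, 0 genes were higher and 0 lower in 1 fit over 76 arrays, 1 and 1 with the heart muscle covariate, and 1 was lower with array weights. Leaving out 1 array gave 1 to 4 higher and 1 to 2 lower, and the replicate number as a block gave 3 and 2. For time in vessels, 3 were higher in 1 fit over 76 arrays, 0 without mice 7 and 29 and 0 without the arrays of high Myh6. Shares of all genes called were not worked out for these alternative fits of time. The smoke effect in wild-type vessels at 3 months had medians of -0.58 to -0.16 with 1 array left out and -0.45 with the replicate block, and its difference between genotypes had a median of -0.023 without the arrays of high Myh6. Cox4i2 had r = 0.69 with the adipocyte mean without the 2 farthest arrays (permutation test, adjusted p = 0.0717), and r = 0.58 with the heart muscle mean in vessels of low Myh6 without mice 7 and 29 (permutation test, adjusted p = 0.0376). For the latter, rho was 0.46 and did not pass (permutation test, adjusted p = 0.229). With mice 7 and 29 kept, r was 0.46 and did not pass either (permutation test, adjusted p = 0.158). In knockout vessels the smoke medians turned sign with 1 array left out, from -0.06 to 0.25 at 3 months and from -0.17 to 0.23 at 8 months, and so did their difference from wild-type at 8 months (-0.24 to 0.12). The causes were not tested. Groups of 4 or 5 arrays limit what could be called, and signals near background carry little information.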

Other observations

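Of 10 NADPH oxidase genes measured, 7 were lower in vessels than in septa and none was higher, with a median difference of -0.59 (limma, adjusted p under 0.05, 16.2% of all genes lower and 12.7% higher). Of 6 brown adipocyte genes, 3 were higher in vessels and 1 lower, and of 13 white adipocyte genes 7 were higher and 2 lower. Of 13 skeletal muscle genes, 5 were higher and none lower. Of 5 erythroid genes 4 were lower, and of 12 capillary endothelial genes 11 were lower.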
